A study of Homo sapiens with 6 samples.

Results

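Interferon-stimulated genes are the genes that cells switch on when an interferon binds its receptor. A list of 37 of them was followed through the differentiation of WA09, an established line of human embryonic stem cells (hESC). Each gene was read from the probe set that the array's annotation gives to that gene alone, and the brightest one on average was taken where a gene had several. This gave values for 35 of the 37 genes, out of 18417 genes measured in all. STAT2 had no named probe set, and GBP1 lay only on a probe set shared with other genes.

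The groups were hESC, kept in StemPro defined medium, nascent mesoderm cells positive for ISL1 (INM), and smooth muscle cells (SMC). INM were made over 4 days with 25 ng/ml of Wnt3a plus 50 ng/ml of BMP4, and SMC with the same supplements over 21 days. Total RNA of each group was measured on 2 arrays, 6 in all, with values on the log2 scale. The labels name no interferon among the agents added. All groups come from 1 cell line, and whether the 2 arrays of a group come from separate cultures is not stated in the labels. The p-values therefore reflect the spread among these arrays, which may be technical.

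As background, type I and type III interferons act through receptors bound to JAK kinases, which phosphorylate STAT proteins, STAT2 among them. STAT2 works with IRF9 in a complex that binds the interferon-stimulated response element (ISRE) in the promoters of its target genes, while type II interferon acts mainly through the gamma-activated site (GAS). The products of the target genes block viruses at entry, RNA synthesis, translation and release. Pluripotent cells are known for a weak response to interferon and for keeping some antiviral genes on without it.

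The ISRE is the sequence feature that many of the listed genes share, so promoters are shown for the 3 members with the largest called changes among those with a match, and for IFI16, whose first window in the table has none. The windows run from 250 bases before to 50 bases after a transcription start listed by RefSeq, are taken from RefSeq on build GRCh38.p14, are written 5′ to 3′ on the strand of the gene, and carry matches to the ISRE core, GAAANNGAA on either strand, in capitals. The IFI6 window is chr1:27672143-27672442 on the minus strand, with 3 matches that begin at positions -156, -115 and -93 relative to the start.
IFI6: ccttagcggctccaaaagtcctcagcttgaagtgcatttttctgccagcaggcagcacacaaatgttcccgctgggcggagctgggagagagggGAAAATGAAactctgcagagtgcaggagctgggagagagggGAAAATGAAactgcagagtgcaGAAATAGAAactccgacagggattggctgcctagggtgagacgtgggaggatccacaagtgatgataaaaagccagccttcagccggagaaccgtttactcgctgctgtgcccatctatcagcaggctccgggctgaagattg
The IFIT3 window is chr10:89327747-89328046 on the plus strand, with 2 matches at -155 and -121, both read on the opposite strand.
IFIT3: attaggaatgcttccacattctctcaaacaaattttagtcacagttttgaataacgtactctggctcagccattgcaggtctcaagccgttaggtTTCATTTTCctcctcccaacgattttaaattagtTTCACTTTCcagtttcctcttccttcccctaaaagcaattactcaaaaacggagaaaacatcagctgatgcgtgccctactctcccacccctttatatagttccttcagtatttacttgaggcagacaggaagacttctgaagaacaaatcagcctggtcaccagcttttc
The PARP14 window is chr3:122680589-122680888 on the plus strand, with 1 match at -29.
PARP14: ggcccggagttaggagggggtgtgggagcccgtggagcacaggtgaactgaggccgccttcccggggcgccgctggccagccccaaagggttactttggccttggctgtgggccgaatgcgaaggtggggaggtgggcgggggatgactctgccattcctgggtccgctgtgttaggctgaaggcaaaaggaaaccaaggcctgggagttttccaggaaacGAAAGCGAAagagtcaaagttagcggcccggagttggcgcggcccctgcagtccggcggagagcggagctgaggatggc
IFI16 has 2 windows, both at starts inside the annotated gene, 9015 and 9931 bases from its outermost start. The first, chr1:159008741-159009040 on the plus strand, holds no match.
IFI16: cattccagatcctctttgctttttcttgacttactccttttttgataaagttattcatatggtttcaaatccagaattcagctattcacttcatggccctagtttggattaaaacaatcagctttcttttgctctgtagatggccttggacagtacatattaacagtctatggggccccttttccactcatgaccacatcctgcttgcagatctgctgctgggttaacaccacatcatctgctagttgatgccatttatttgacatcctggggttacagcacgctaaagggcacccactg
The second, chr1:159009657-159009956, holds 1 match at -74 on the opposite strand.
IFI16: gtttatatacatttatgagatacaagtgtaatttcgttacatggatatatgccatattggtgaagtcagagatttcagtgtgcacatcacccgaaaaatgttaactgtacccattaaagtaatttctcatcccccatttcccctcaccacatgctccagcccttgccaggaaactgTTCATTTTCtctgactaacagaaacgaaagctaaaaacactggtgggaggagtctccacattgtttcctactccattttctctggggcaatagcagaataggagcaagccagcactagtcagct

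The RefSeq promoter table held 28 of the 37 genes and not IRF7, DHX58, OAS2, OASL, IFIT2, MX2, GBP2, USP18 and TRIM22. The ISRE core was found in 17 of the 28 windows (60.7%), against 2264 of 27305 promoters in the table (8.3%). The GAS letters TTCNNNGAA, searched on both strands, were found in 7 of 28 windows (25.0%), against 7.9% of all promoters. Windows of PARP14, IFI27 and BST2 held both, and in IFI27 and BST2 the 2 kinds of match shared bases. More than 1 match was found in 11 of the 28 windows, with 3 in ISG15 and 4 in IFIH1. Among measured genes with a window, the core was present in 8 of 14 that were called in any comparison below and in 8 of 12 that were called in none. These counts take the first window of each gene. RefSeq lists several starts for 9 of the 28 genes, and the first windows of IFI16, IFI27, ISG20 and XAF1 lie at starts inside the annotated gene. With all windows of a gene searched, an alternative added after seeing the data, IFI16 and PARP9 also held the core, giving 19 of 28 genes (67.9%) against 9.9% of all genes, 10 of the 14 that were called and 8 of the 12 that were not. A match describes the letters of a window and is not shown to be a binding site.

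The labels were checked on marker genes. In INM against hESC, 7 of 8 markers of ISL1-positive mesoderm were higher and 5 of 7 pluripotency markers lower, and in SMC against hESC 6 of 8 smooth muscle markers were higher and all 7 pluripotency markers lower. Smooth muscle markers separated the SMC less from the INM: 5 of the 8 were already higher in INM than in hESC, and in SMC against INM ACTA2 and LMOD1 were higher and MYOCD and SYNPO2 lower. MYH11, a late marker of contractile smooth muscle, was not called in any comparison (5.77 and 5.51 in hESC, 5.71 and 5.82 in INM, 5.59 and 5.43 in SMC). A gap of over 1 log2 unit between the arrays of a group was found in 16 genes for hESC, 700 for INM and 11 for SMC. None of the 35 interferon-stimulated genes differed that much within a group, and the widest gap was 0.95, for HERC6 between the INM arrays.

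Low signal was more frequent in this list than among all genes. The median of the probe sets with no gene name, taken here as a guide to background, lay at 5.62 and 5.65 on the hESC arrays, 5.11 and 5.04 on the INM arrays and 5.34 and 5.31 on the SMC arrays. Its lowest value, 5.04, was used as a floor: no fold is given where a group mean lies below it, and only the log2 change of the signal is reported. Where both arrays of the dimmer group lie under their own medians of unnamed probe sets, a fold is given only as a bound, with those medians in place of the dim values. All 6 arrays lay below the floor for 6 members (17.1%), IFIH1, IFIT2, RSAD2, SAMD9, IFI44 and IFI44L, against 9.94% of all genes. All 6 lay above it for 20 members (57.1%), against 81.5% of all genes. Probe sets differ in brightness, so levels are compared between arrays for 1 gene and never between genes.

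**Figure D1:**
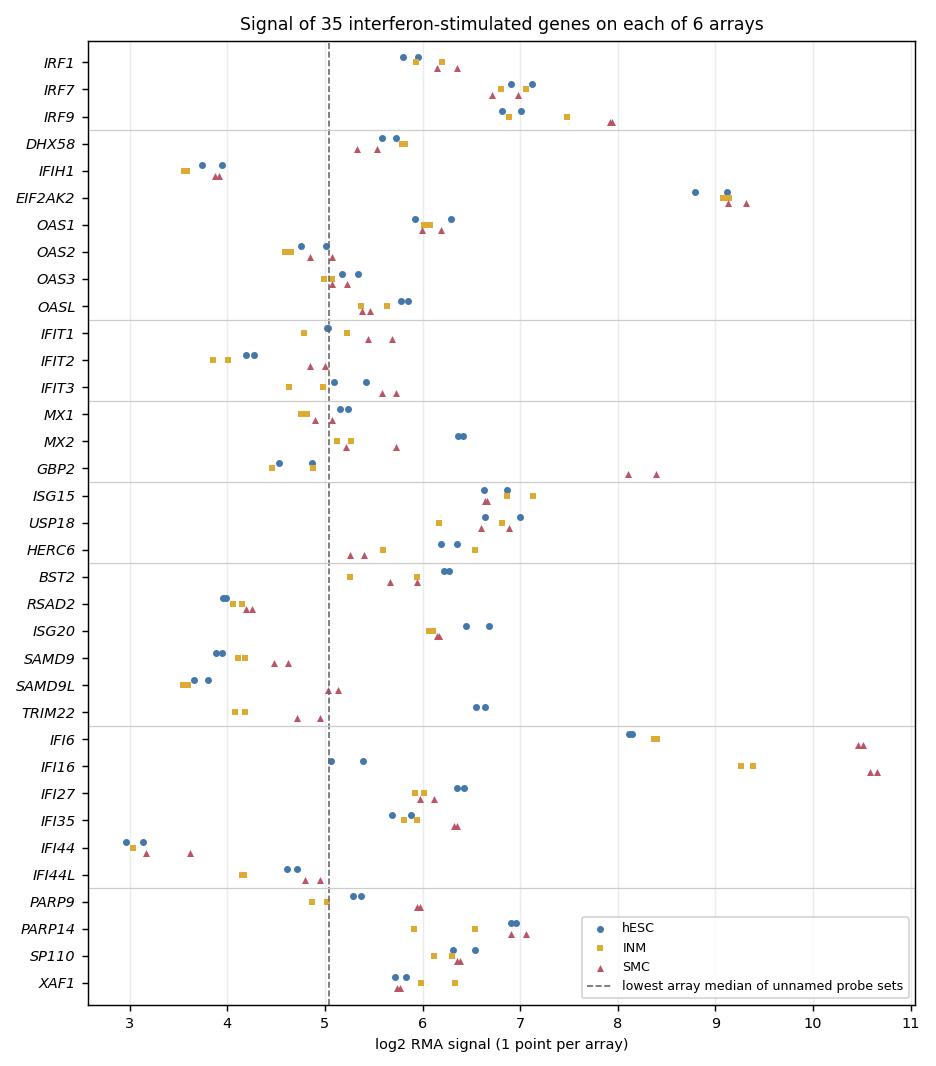
Each point is the log2 signal of 1 gene on 1 array, for the 35 measured interferon-stimulated genes ordered by role (rows) and the arrays of hESC (circles), INM (squares) and SMC (triangles); the dashed line is the floor of 5.04. IFI16, GBP2 and IFI6 reach their highest signal in SMC, and TRIM22 and MX2 theirs in hESC. Positions along the axis are comparable within a gene, not between genes.

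The list did not move as a block. In INM against hESC, 1 member rose and 8 fell at an adjusted p under 0.05 in limma's moderated test, which is 25.7% of the 35, and 33.8% of all genes were called in that comparison (18.9% higher, 14.8% lower). The median change of the members was -0.20 on the log2 scale, against -0.03 over all genes. In SMC against INM, 13 members rose and 0 fell, which is 37.1% of the list, against 21.0% of all genes (9.94% higher, 11.1% lower). The median change was 0.28, against -0.02 over all genes, and 29 of the 35 changes were positive. At an unadjusted p under 0.05, 16 members were higher and 4 lower (DHX58, ISG15, HERC6 and XAF1). In SMC against hESC, 9 rose and 4 fell, the same 37.1% of the list and a share close to the 37.2% of all genes called (19.7% higher, 17.6% lower), with a median of 0.05 against -0.05. RNA from many cells was pooled in each sample, so fewer cells with a transcript and less of it per cell cannot be told apart.

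The members fell into a few patterns over the 3 stages. Higher signal in SMC than in both earlier stages, with no called change in INM, was found for 7 genes: IRF9, IFIT2, GBP2, SAMD9, SAMD9L, IFI6 and IFI35. Of these, IFIT2, SAMD9 and SAMD9L stayed under the median of the unnamed probe sets on every array, SMC included. Of the 35 genes, IFI16 alone was called higher at both steps. PARP9, PARP14, IFI44L and TRIM22 fell in INM and rose again in SMC, and of these PARP9 ended above hESC and TRIM22 below it. The falls of PARP9 and IFI44L ran between values under the medians of the unnamed probe sets on the same arrays. MX2 and ISG20 fell in INM and were still lower in SMC than in hESC. The remaining calls were falls of MX1 and IFI27 in INM, a rise of IFIT3 in SMC over INM, and a lower HERC6 in SMC than in hESC. The other 17 members were called in no comparison, and their largest change in either direction was 0.64. A moderated F test for any difference between stages called 16 of 35 members, against 45.5% of all genes. The INM arrays enter both steps, so a fall in INM and a rise in SMC over INM rest in part on the same values.

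The background signal moved between the stages as well. Over the 12083 unnamed probe sets the median change was -0.30 in INM against hESC, 0.15 in SMC against INM and -0.17 in SMC against hESC. Over the 2464 named genes whose mean lay below the floor it was -0.17, 0.08 and -0.09 in the same 3 comparisons. The 9 members with such means had medians of -0.27, 0.36 and 0.25, and the 26 members above the floor had medians of -0.14, 0.19 and -0.04. Dim features as a whole therefore fell in INM and were higher again in SMC, in the same direction as most members at these 2 steps, and the part of this shift in the members' smaller changes was not tested. With quantile normalization, which equalises the arrays' distributions, 4 members instead of 8 were lower in INM than in hESC (MX2, ISG20, TRIM22 and PARP14), 12 instead of 13 were higher in SMC than in INM, and 12 and 2 instead of 9 and 4 were higher and lower in SMC than in hESC.

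With 2 arrays in a group, many of the smaller calls were lost when 1 array was left out. An array of the third group does not enter a comparison's log2 change, only the estimate of its spread. Leaving out either array of that group gives the same fit, that of the 4 arrays compared. A call lost there was lost with its log2 change unaltered. Leaving out each array in turn gave 2 to 12 members lower in INM than in hESC, fewest without hESC replicate 1 and most without INM replicate 2, and 1 or 2 higher. In SMC against INM it gave 6 to 15 members higher, with 6 without SMC replicate 1 and 7 without SMC replicate 2, and 0 to 2 lower, which were HERC6 and XAF1 without INM replicate 1 and ISG15 without INM replicate 2. In SMC against hESC it gave 5 to 12 members higher and 1 to 7 lower, with 5 higher without SMC replicate 1 and 1 lower without either hESC array. Calls that held in all 6 of these fits were IFI16, MX2 and TRIM22 in INM against hESC, IFIT2, GBP2, SAMD9L, IFI6, IFI16 and PARP9 in SMC against INM, and GBP2, SAMD9L, IFI6, IFI16 and TRIM22 in SMC against hESC, 14 of 35 calls. For 2 arrays against 2, the smallest two-sided p of an exact permutation test is 0.333, so the fit across all genes is the test used here. This fit shares 1 estimate of the spread among the groups. The spread was widest in INM (pooled SD over genes 0.313, against 0.149 in hESC and 0.132 in SMC). In SMC against hESC, a fit of only those 4 arrays gave 12 members higher and 7 lower instead of 9 and 4. The added calls were IRF1, IFIT1 and IFIT3 higher and OASL, BST2 and IFI27 lower.

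**Figure D2:**
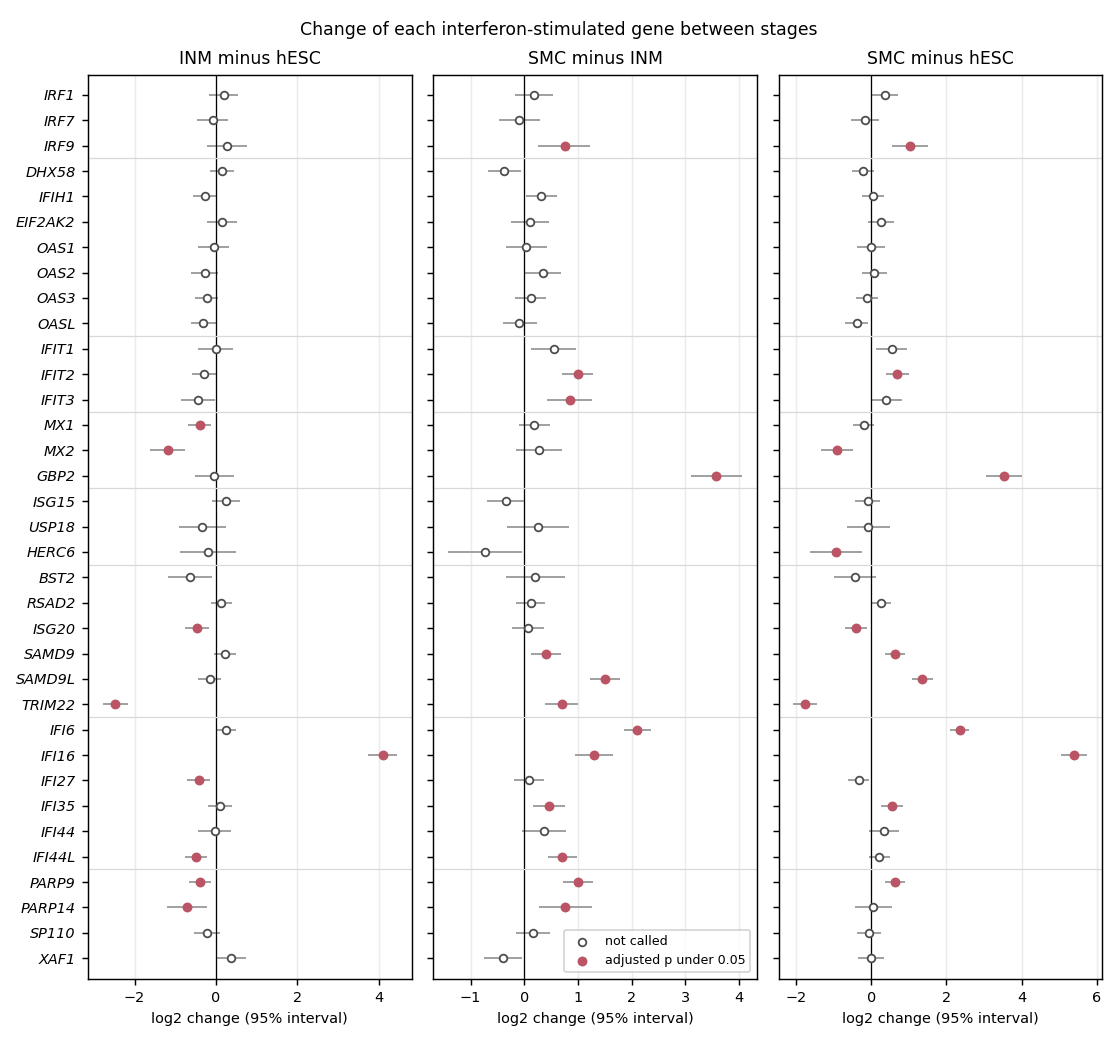
Log2 change of each measured interferon-stimulated gene (rows, by role) in INM against hESC, SMC against INM and SMC against hESC, with its 95% interval from the fit; filled points have an adjusted p under 0.05. Most points lie within 1 of zero, and IFI16, GBP2, IFI6 and TRIM22 stand apart; the horizontal scales of the 3 panels differ.

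Among the transcription factors, IRF9 rose in SMC while IRF1 and IRF7 were not called. IRF9, the DNA-binding subunit of the complex that acts at the ISRE, had a signal of 6.81 and 7.01 in hESC, 7.48 and 6.89 in INM, then 7.92 and 7.94 in SMC. Both SMC arrays stood above all other arrays, and the INM and hESC arrays overlapped. The log2 change was 1.02 (SE 0.20, 2.03-fold, limma adjusted p = 0.00820) in SMC against hESC and 0.75 (SE 0.20, adjusted p = 0.0433) in SMC against INM. The second of these calls was lost without either hESC array or either SMC array, and the first without hESC replicate 1, SMC replicate 1 or SMC replicate 2. IRF1, a factor induced by type II interferon, had 5.80 and 5.95 in hESC, 5.93 and 6.20 in INM and, in SMC, 6.15 and 6.35, and its change of 0.37 in SMC against hESC had an adjusted p of 0.0908. IRF7, which amplifies interferon production, stayed between 6.71 and 7.12 on all arrays.

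The cytoplasmic RNA sensors, the OAS enzymes and the kinase PKR formed the group with the fewest calls, 0 of 7 in each comparison. Among all genes 33.8% were called in INM against hESC, 21.0% in SMC against INM and 37.2% in SMC against hESC. At an unadjusted p under 0.05, IFIH1 and OAS2 were higher and DHX58 lower in SMC against INM, and OASL was lower in SMC against hESC. EIF2AK2, which encodes PKR and stops translation when it binds double-stranded RNA, had 8.79 and 9.12 in hESC, 9.08 and 9.14 in INM, then 9.31 and 9.13 in SMC. The hESC and INM arrays overlapped and the SMC arrays lay just above hESC. The change in SMC against hESC was 0.26, with a 95% interval of -0.10 to 0.61. OAS1, an enzyme that makes the oligoadenylates which activate RNase L, changed by -0.01 between SMC and hESC, with an interval of -0.39 to 0.37. Its relatives OAS2 and OAS3, which lie next to it in the genome, changed by 0.07 and -0.11, and OASL, a relative without that enzyme activity, by -0.39 (adjusted p = 0.0561). OAS2 was below the floor on all but 1 array. IFIH1, the sensor MDA5, lay below the floor throughout, between 3.56 and 3.95. DHX58, the regulator LGP2 of the same family, changed by -0.37 in SMC against INM (adjusted p = 0.0834).

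The IFIT genes, whose products bind foreign RNA and block its translation, had their highest signal in SMC. In SMC against INM 2 of the 3 were called higher, against 9.94% of all genes. IFIT2 had 4.27 and 4.19 in hESC, 4.01 and 3.85 in INM and, in SMC, 5.00 and 4.85. The SMC arrays were the highest and the INM arrays the lowest, with no overlap, although all 6 values lay below the floor. It rose by 1.0 (SE 0.12, adjusted p = 0.00271) in SMC against INM and by 0.69 (SE 0.12, adjusted p = 0.00515) against hESC, the second call being lost without SMC replicate 1. IFIT3, whose promoter window above holds 2 ISRE cores, had 5.42 and 5.09 in hESC, 4.63 and 4.98 in INM, then 5.73 and 5.58 in SMC, again with SMC highest and INM lowest. It rose by 0.85 (SE 0.17, adjusted p = 0.0176) in SMC against INM, a call lost without either SMC array, and was not called against hESC (0.40, adjusted p = 0.119). IFIT1 had 5.03 and 5.02 in hESC, 4.79 and 5.23 in INM and, in SMC, 5.69 and 5.44. Both SMC arrays of IFIT1 were above all others, yet neither change passed the test, with 0.55 (adjusted p = 0.0704) against INM and 0.54 (adjusted p = 0.0512) against hESC. IFIT2 and IFIT3 are neighbours in the genome and IFIT1 lies nearby, with 1 coding gene between it and IFIT3.

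The GTPases went opposite ways. GBP2, a guanylate-binding protein that is strongly induced by type II interferon and acts at the membranes of vacuoles that hold pathogens, had 4.87 and 4.53 in hESC, 4.88 and 4.46 in INM, then 8.39 and 8.10 in SMC. Both SMC arrays were more than 3 log2 units above every other array, where the signal lay below the floor. The log2 change was 3.58 (SE 0.20, adjusted p = 0.000157) in SMC against INM and 3.54 (SE 0.20, adjusted p = 5.9e-05) against hESC. A second probe set of GBP2 gave 3.72 and 3.75 in hESC, 4.81 and 4.29 in INM and, in SMC, 8.0 and 7.84. The probe set shared by GBP1, GBP3 and GBP1P1 gave 4.85 and 4.54 in hESC, 5.50 and 4.93 in INM, then 8.28 and 8.29 in SMC, and which of these genes it reports cannot be told.

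MX2, a dynamin-like GTPase that hinders the nuclear entry of HIV, had 6.41 and 6.36 in hESC, 5.27 and 5.12 in INM and, in SMC, 5.22 and 5.73. Both hESC arrays stood above all others, and the INM and SMC arrays overlapped. The INM values lay close to the medians of the unnamed probe sets on the same arrays, 5.11 and 5.04. SMC replicate 1 lay under its median of 5.34, so the folds below run to values near background. MX2 fell by 1.19 on the log2 scale (SE 0.18, 2.28-fold, adjusted p = 0.00389) in INM and was lower in SMC than in hESC (-0.91, SE 0.18, 1.88-fold, adjusted p = 0.00863), a call lost without either hESC array. Its genomic neighbour MX1, which blocks influenza virus, had 5.24 and 5.15 in hESC, 4.76 and 4.82 in INM, then 5.07 and 4.90 in SMC. Each of these values lay under the median of the unnamed probe sets on its array. With quantile normalization MX1 changed by -0.23 in INM against hESC and was not called. The fall of MX1 in INM (-0.40, adjusted p = 0.0410) was called in 1 of the 6 fits with an array left out, the one without INM replicate 2.

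The ISG15 system, in which a ubiquitin-like protein is attached to targets and removed again, showed 1 call. It was 1 of 3 genes in SMC against hESC, where 37.2% of all genes were called. ISG15 itself, the modifier, had 6.87 and 6.63 in hESC, 7.13 and 6.87 in INM and, in SMC, 6.64 and 6.66. It was not called, with changes of 0.25 in INM against hESC (adjusted p = 0.227), -0.35 in SMC against INM (adjusted p = 0.140) and -0.10 in SMC against hESC (adjusted p = 0.620). USP18, the protease that removes ISG15 and also dampens the type I receptor, had overlapping groups and changes between -0.34 and 0.26. The probe set that USP18 shares with USP41P read 7.09 and 7.43 in hESC, 6.35 and 6.57 in INM, then 7.0 and 6.85 in SMC. HERC6, a ligase that attaches ISG15 in mouse, had 6.19 and 6.35 in hESC, 5.59 and 6.54 in INM and, in SMC, 5.40 and 5.26, so the SMC arrays were the lowest and the INM arrays lay on both sides of hESC. The SMC values lay close to the medians of the unnamed probe sets on the same arrays, 5.34 and 5.31. HERC6 was lower in SMC than in hESC (-0.94 on the log2 scale, SE 0.29, adjusted p = 0.0425), a call lost without either hESC or either SMC array.

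Among the other antiviral effectors, TRIM22 fell most and SAMD9L rose most. TRIM22, a ubiquitin ligase that restricts several viruses, had 6.64 and 6.55 in hESC, 4.18 and 4.08 in INM, then 4.95 and 4.71 in SMC. The 3 groups were fully separate, with hESC highest and INM lowest. The change was -2.47 (SE 0.13, adjusted p = 9.0e-05) in INM against hESC and -1.77 (SE 0.13, adjusted p = 0.000154) in SMC against hESC. The rise of 0.70 (SE 0.13, adjusted p = 0.0122) in SMC against INM ran between 2 means below the floor and was lost without SMC replicate 1. SAMD9L, a restriction factor that also limits cell growth, had 3.80 and 3.66 in hESC, 3.55 and 3.60 in INM and, in SMC, 5.03 and 5.13. Both SMC arrays lay more than 1 log2 unit above all others and close to the floor. They were still under the medians of the unnamed probe sets on the same arrays, 5.34 and 5.31. SAMD9L rose by 1.50 (SE 0.11, adjusted p = 0.000471) against INM and by 1.35 (SE 0.11, adjusted p = 0.000279) against hESC.

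SAMD9, its relative and neighbour in the genome, stayed below the floor but followed the same direction. It read 3.88 and 3.95 in hESC, 4.11 and 4.18 in INM, then 4.62 and 4.48 in SMC, without overlap. Its change was 0.63 (SE 0.11, adjusted p = 0.00581) in SMC against hESC, lost without SMC replicate 1, and 0.41 (SE 0.11, adjusted p = 0.0485) against INM, called in 1 of the 6 fits with an array left out. ISG20, an exonuclease that degrades RNA, had 6.68 and 6.45 in hESC, 6.11 and 6.07 in INM and, in SMC, 6.17 and 6.15. Both later stages lay below both hESC arrays. ISG20 fell in INM (-0.47, adjusted p = 0.0265) and was lower in SMC than in hESC (-0.40, adjusted p = 0.0418), and both calls were lost without hESC replicate 1 or either SMC array, the second also without hESC replicate 2. BST2, or tetherin, which holds budding virus at the cell surface, changed by -0.64 in INM (adjusted p = 0.0729), and RSAD2, or viperin, stayed between 3.96 and 4.25, below the floor.

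Among the IFI genes, IFI16 and IFI6 changed most. IFI16, a nuclear protein that senses DNA, had 5.06 and 5.39 in hESC, 9.26 and 9.39 in INM, then 10.66 and 10.58 in SMC. The 3 groups were fully separate, and both hESC values lay under the median of the unnamed probe sets on the same arrays. It was at least 12.9-fold higher in INM than in hESC (measured log2 change 4.10, SE 0.15, adjusted p = 2.6e-05) and at least 31.7-fold higher in SMC than in hESC (5.40, SE 0.15, adjusted p = 1.2e-05). The further rise in SMC over INM was 2.46-fold (1.30, SE 0.15, adjusted p = 0.00199). Of its promoter windows shown above, the second holds an ISRE core and neither holds the GAS letters.

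IFI6, a small hydrophobic protein of mitochondria and endoplasmic reticulum, had 8.12 and 8.15 in hESC, 8.37 and 8.40 in INM and, in SMC, 10.46 and 10.51. The arrays of each group were close together and the groups did not overlap. IFI6 was 4.30-fold higher in SMC than in INM (2.10, SE 0.11, adjusted p = 0.000124) and 5.10-fold higher than in hESC (2.35, SE 0.11, adjusted p = 3.1e-05), while the change of 0.25 in INM was not called (adjusted p = 0.119). IFI27, a related small protein whose window, at a start inside the annotated gene, also holds the ISRE core, did not follow it. It had 6.42 and 6.35 in hESC, 5.92 and 6.01 in INM, then 5.97 and 6.12 in SMC, and its fall in INM (-0.42, adjusted p = 0.0343) was called in 1 of the 6 fits with an array left out.

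IFI35, which binds the interferon-regulated protein NMI, had 5.88 and 5.69 in hESC, 5.81 and 5.94 in INM and, in SMC, 6.32 and 6.35. Both SMC arrays were the highest, and the rise was 0.55 (SE 0.12, adjusted p = 0.0138) against hESC and 0.46 (SE 0.12, adjusted p = 0.0436) against INM. The call against INM was made in 1 of the 6 fits with an array left out, and the one against hESC was lost without hESC replicate 2, SMC replicate 1 or SMC replicate 2. IFI44 and IFI44L, related neighbouring genes, lay below the floor on every array. IFI44L had 4.71 and 4.61 in hESC, 4.15 and 4.17 in INM, then 4.95 and 4.80 in SMC, with no overlap. It fell in INM (-0.50, SE 0.12, adjusted p = 0.0179) and rose in SMC over INM (0.71, SE 0.12, adjusted p = 0.00765). The fall was lost without either hESC array and the rise without either SMC array. IFI44 had 3.14 and 2.96 in hESC, 3.03 and 3.03 in INM and, in SMC, 3.17 and 3.62 and was not called.

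PARP9 and PARP14, ADP-ribosyltransferases of the interferon response that lie close together in the genome, both dipped in INM. PARP9, the partner of the ligase DTX3L, had 5.37 and 5.29 in hESC, 4.87 and 5.02 in INM, then 5.94 and 5.97 in SMC. The 3 groups did not overlap, with SMC highest. The hESC and INM values lay under the medians of the unnamed probe sets on the same arrays. As a bound, PARP9 was at least 1.83-fold higher in SMC than in INM and at least 1.25-fold higher than in hESC. With quantile normalization its change in INM against hESC was -0.22 and was not called. In the main fit its changes were -0.39 (SE 0.11, adjusted p = 0.0419) in INM against hESC, 1.01 (SE 0.11, adjusted p = 0.00209) in SMC against INM and 0.62 (SE 0.11, adjusted p = 0.00626) in SMC against hESC. The first was called in 1 of the 6 fits with an array left out, and the last was lost without SMC replicate 2. PARP14, which acts on STAT signalling, had 6.91 and 6.96 in hESC, 5.91 and 6.54 in INM and, in SMC, 7.06 and 6.91. Both INM arrays were below the rest, though far from each other. It fell by 0.71 (SE 0.21, adjusted p = 0.0387) in INM and rose by 0.76 (SE 0.21, adjusted p = 0.0446) in SMC, and both calls were lost without either hESC or either SMC array. SP110, a nuclear body protein, ranged from 6.12 to 6.54. XAF1, which promotes cell death, ranged from 5.72 to 6.33 with its highest arrays in INM, and neither was called.

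The IFIT genes and the guanylate-binding proteins have close relatives with similar sequence, so the split of signal between relatives is uncertain in both families.

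The rest of the interferon pathway was read from 5 further lists. Of 21 interferon genes, 16 had a probe set of their own, and 12 of these lay below the floor on all 6 arrays. IFNB1, the first interferon made after infection in most cells, had 3.85 and 3.37 in hESC, 4.07 and 3.91 in INM, then 3.91 and 3.81 in SMC. IFNG, the type II interferon, had 3.42 and 3.04 in hESC, 3.05 and 2.89 in INM and, in SMC, 3.48 and 3.25. Neither was called. The type III interferons IFNL1, IFNL2 and IFNL3 were the ligands above the floor on all 6 arrays, with signals of 5.74 to 6.44, 6.32 to 6.66 and 7.77 to 8.17, and none of the 3 was called. Since probe sets differ in brightness, a signal above the floor does not by itself show that these genes were expressed. The calls among the ligands were IFNA6, lower in INM than in hESC (-0.44, adjusted p = 0.0199), and IFNE, an interferon of epithelia, higher in SMC than in INM (1.13, adjusted p = 0.0173) and than in hESC (0.74, adjusted p = 0.0452), all at signals below the floor or next to it and each lost without at least 1 array.

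Most of the receptor chains and JAK kinases were called higher in INM and in SMC than in hESC. All 10 genes measured were above the floor on all arrays. In INM against hESC 7 rose and 0 fell, in SMC against INM 3 rose and 1 fell, and in SMC against hESC 7 rose and 1 fell. These are 70.0%, 40.0% and 80.0% of the list, against 33.8%, 21.0% and 37.2% of all genes. Leaving out each array in turn gave 2 to 8, 1 to 6 and 6 to 8 rises in these comparisons, with 2 without hESC replicate 1 and 4 without hESC replicate 2 in the first and 1 without either SMC array in the second.

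IFNAR1, a chain of the type I receptor, had 7.15 and 7.56 in hESC, 8.05 and 8.02 in INM, then 8.82 and 8.76 in SMC, a fully ordered series. It was 2.71-fold higher in SMC than in hESC (1.44, SE 0.16, adjusted p = 0.000734). IL10RB, a chain shared by the type III receptor, followed with a rise of 1.43 (SE 0.11, adjusted p = 0.000215). JAK1, the kinase common to all interferon receptors, had 8.63 and 8.65 in hESC, 9.72 and 9.46 in INM and, in SMC, 9.83 and 9.88, and rose by 0.95 (SE 0.13, adjusted p = 0.00250) in INM against hESC. JAK2, the kinase of the type II receptor, rose by 1.05 (SE 0.16, adjusted p = 0.00372) at that step and TYK2, of the type I receptor, by 0.74 (SE 0.13, adjusted p = 0.00740). IFNAR2, the other chain of the type I receptor, was called in no comparison (0.31 in INM and 0.48 in SMC against hESC, adjusted p = 0.225 and 0.0789), and IFNGR1, a chain of the type II receptor, not in SMC against hESC (0.22, adjusted p = 0.285). The 1 gene called lower was IFNLR1, the specific chain of the type III receptor, with 6.98 and 6.69 in hESC, 6.60 and 6.36 in INM, then 5.49 and 5.69 in SMC. It was lower in SMC than in hESC by 2.37-fold (-1.24, SE 0.16, adjusted p = 0.00138), and its partner IL10RB was higher in the same arrays.

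Among 17 genes that sense nucleic acid and lead to interferon production, 3 rose and 2 fell in INM against hESC, 2 rose and 0 fell in SMC against INM, and 7 rose and 0 fell in SMC against hESC. The shares called were 29.4%, 11.8% and 41.2%, against 33.8%, 21.0% and 37.2% of all genes. When single arrays were left out the rises numbered 2 to 5, 1 to 4 and 2 to 7, and the falls in INM against hESC 0 to 3. RIGI, the founding RNA sensor, was not called, like its relatives IFIH1 and DHX58 above, with changes of 0.14, -0.25 and -0.11 in the 3 comparisons. MYD88, an adaptor of Toll-like receptors, rose by 0.93 (adjusted p = 0.00370) and TRAF3, a signalling ligase, by 0.82 (adjusted p = 0.00408) in INM against hESC. STING1, the adaptor of the cytoplasmic DNA sensor cGAS, rose by 0.81 (adjusted p = 0.0107) in SMC against INM, a call lost without either SMC array. TRIM25, a ligase that activates RIGI, fell by 0.72 (adjusted p = 0.00588) in INM and rose by 0.94 (adjusted p = 0.00350) in SMC.

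The 11 inhibitors of interferon signalling showed 5 rises and 1 fall in INM against hESC, 4 rises and 1 fall in SMC against INM, and 6 rises and 3 falls in SMC against hESC. These are 54.5%, 45.5% and 81.8% of the list, against 33.8%, 21.0% and 37.2% of all genes. Without single arrays the rises numbered 0 to 5, 1 to 4 and 3 to 6. The balance in INM against hESC depended on the scaling, with 3 rises and 3 falls after median centring, 1 and 3 after quantile normalization and 3 and 2 with the replicate number as a block. In SMC against hESC median centring gave 4 rises and 3 falls, quantile normalization 3 and 3, and the block 4 and 3. SOCS3, which blocks JAK kinases and is also induced by other cytokines, had 6.57 and 6.68 in hESC, 7.19 and 7.89 in INM and, in SMC, 8.98 and 8.88. It was 4.96-fold higher in SMC than in hESC (2.31, SE 0.23, adjusted p = 0.000482). SOCS1, its relative, was higher in SMC than in INM (1.42, SE 0.22, adjusted p = 0.00695), and IRF2, which opposes IRF1, likewise (1.24, SE 0.16, adjusted p = 0.00337). PTPN6, a phosphatase that dampens JAK signalling, was lower in SMC than in hESC (-1.28, SE 0.14, adjusted p = 0.000857).

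**Figure D3:**
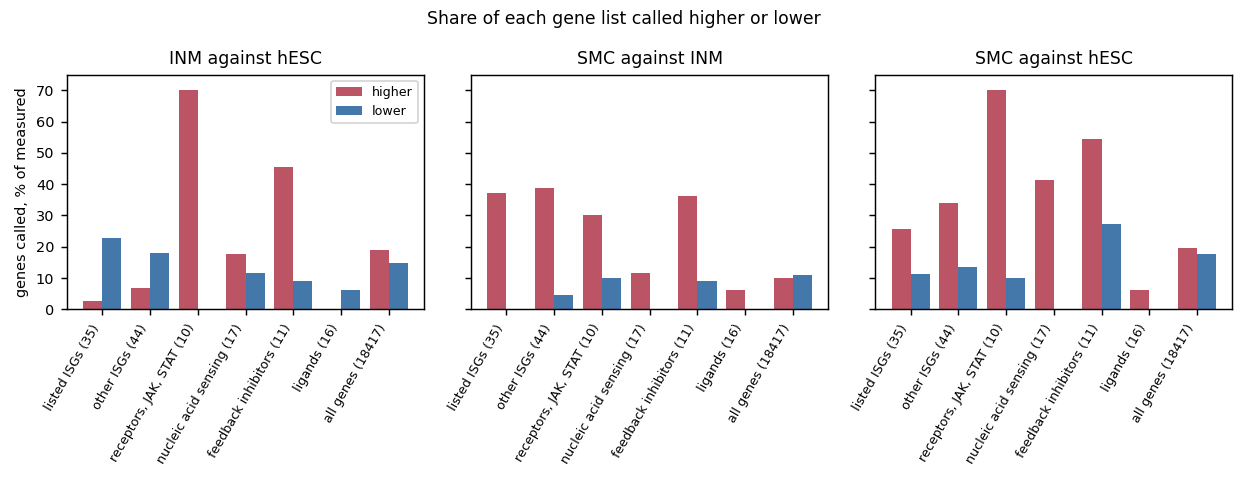
Share of the measured genes of each list called higher (red bars) or lower (blue bars) at an adjusted p under 0.05, in percent, in INM against hESC, SMC against INM and SMC against hESC, beside the share among all 18417 genes. The number of genes measured stands beside each list's name. The 35 listed interferon-stimulated genes (ISGs) have 37.1% of their genes called in SMC against INM, all of them higher.

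A further 48 interferon-stimulated genes outside the list were followed, of which 44 were measured. In INM against hESC 3 rose and 8 fell with a median change of -0.10, in SMC against INM 17 rose and 2 fell with a median of 0.38, and in SMC against hESC 15 rose and 6 fell with a median of 0.30. These are 25.0%, 43.2% and 47.7% of the 44, against 33.8%, 21.0% and 37.2% of all genes. In SMC against INM the rises numbered 8 without SMC replicate 1, 7 without SMC replicate 2 and up to 24, and in INM against hESC the rises numbered 1 to 7 and the falls 3 to 14. CXCL10, a chemokine induced by type II interferon that attracts T cells, had 3.48 and 2.99 in hESC, 2.84 and 2.94 in INM, then 6.64 and 6.81 in SMC, and CXCL11, a related chemokine, had 3.74 and 3.61, 3.53 and 3.46, and 6.67 and 6.31 in the same order. Both were below the floor before SMC and above it there. They rose by 3.84 (SE 0.18, adjusted p = 9.9e-05) and 3.0 (SE 0.15, adjusted p = 0.000124) in SMC against INM. The INM values lay under the medians of the unnamed probe sets, so the folds are bounds, at least 3.13 and 2.66. CXCL9, of the same list, was below the floor in every stage, with means of 3.89 in hESC, 3.35 in INM and 3.59 in SMC. GBP4, of the family of GBP2, was higher in SMC than in hESC by 2.61 (SE 0.29, adjusted p = 0.000813).

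The IFITM genes, whose products block the entry of enveloped viruses, had their lowest signal in INM. IFITM1, which is also used as a marker of pluripotent cells, had 12.21 and 12.22 in hESC, 8.02 and 9.62 in INM and, in SMC, 12.02 and 12.02. It fell 10.5-fold in INM (-3.39, SE 0.45, adjusted p = 0.00238) and rose 9.16-fold in SMC over INM (3.20, SE 0.45, adjusted p = 0.00469), a rise whose call was lost without SMC replicate 2. The INM arrays lay far apart, and the changes were -2.59 and 2.40 without INM replicate 1 and -4.19 and 3.99 without INM replicate 2. In SMC against hESC it changed by -0.20, with an adjusted p of 0.768. IFITM3 had 11.27 and 11.24 in hESC, 10.47 and 11.07 in INM, then 12.46 and 12.52 in SMC, and was 3.30-fold higher in SMC than in INM (1.72, SE 0.20, adjusted p = 0.00208) and 2.35-fold higher than in hESC (1.23, SE 0.20, adjusted p = 0.00343). IFITM2 was 2.86-fold higher in SMC than in INM (1.52, SE 0.19, adjusted p = 0.00287). These 3 genes are near-identical in part, and their signals may include each other's transcripts.

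Several further genes showed other orders of the stages. LGALS3BP, a secreted glycoprotein, had 8.08 and 8.0 in hESC, 7.09 and 7.41 in INM and, in SMC, 10.08 and 10.28, so that it fell at the first step and was 7.61-fold higher in SMC than in INM (2.93, SE 0.15, adjusted p = 0.000124). EPSTI1 had 4.85 and 5.03 in hESC, 6.75 and 6.50 in INM, then 4.87 and 4.84 in SMC, the reverse order, and rose by 1.68 (SE 0.13, adjusted p = 0.000342) in INM against hESC. HERC5, the main ligase for ISG15 in human cells, had 6.69 and 6.91 in hESC, 6.47 and 7.27 in INM and, in SMC, 5.17 and 4.93. The SMC values lay under the medians of unnamed probe sets, and HERC5 was at least 2.78-fold lower in SMC than in hESC (measured -1.75, SE 0.26, adjusted p = 0.00260), in the same direction as HERC6. IFI30, a lysosomal thiol reductase, was 4.65-fold lower in INM than in hESC (-2.22, SE 0.28, adjusted p = 0.00184), and SAMHD1, which depletes nucleotides, 3.83-fold lower (-1.94, SE 0.22, adjusted p = 0.00136).

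**Figure D4:**
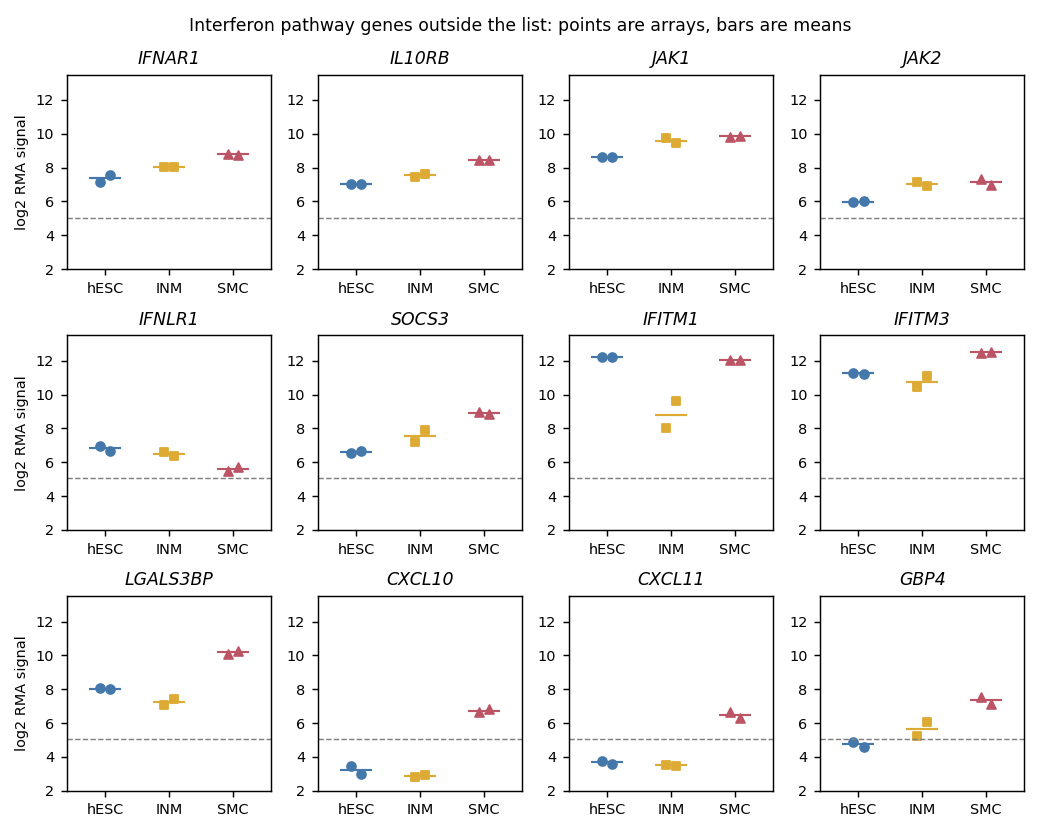
Log2 signal of 12 genes of the interferon pathway outside the list, 1 panel a gene, with 1 point an array, a bar at each group mean and the stages hESC, INM and SMC from left to right; the dashed line is the floor of 5.04. IFNAR1, IL10RB, JAK1 and JAK2 are higher in both later stages than in hESC, IFNLR1 is lowest in SMC, IFITM1 dips in INM, and CXCL10 and CXCL11 lie above the floor in SMC only.

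Markers of other cell types were read on the same arrays and did not move in 1 direction. Of 8 endothelial genes, 3 were higher in SMC than in INM (PECAM1, ERG and EMCN) and 0 lower, and 4 higher than in hESC. The shares called were 37.5% and 50.0%, against 21.0% and 37.2% of all genes. The summed linear signal of the 8 genes was 1978 to 2004 in hESC, 1122 to 4581 in INM and 2640 to 2668 in SMC. The SMC sums thus lay within the INM range, which ran from replicate 1 (1122) to replicate 2 (4581). The mean log2 signal of the 8 genes gave another order, with both SMC arrays highest. It was 6.43 and 6.36 in hESC, 6.34 and 6.79 in INM, then 7.22 and 7.21 in SMC. Of 8 blood and macrophage genes, CD68 was higher in SMC than in INM and CSF1R lower, 25.0% of the list against 21.0% of all genes. The sums of the 8 genes were 630 to 710 in hESC, 626 to 678 in INM and 732 to 795 in SMC. PTPRC, which marks all white blood cells, was below the floor on all 6 arrays. Of 8 trophoblast and amnion genes, 4 were higher in INM than in hESC (50.0%, against 33.8% of all genes called). In SMC against INM 5 were lower (62.5%, against 21.0%). The sums were 360 to 440 in hESC, 2515 to 5180 in INM and 677 to 735 in SMC, and XAGE2 was below the floor throughout. The part of endothelial, CD68-positive or trophoblast-like cells in the changes of the interferon-stimulated genes was not tested.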

How the data were processed

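Total RNA of 3 groups with 2 samples each was measured on Affymetrix arrays. The deposited values were made by the authors with RMA, which corrects background, normalizes and summarises probes, and limma is also named, both per the submitters' processing notes with no version given. The authors' deposited values are on the log2 scale (1.36 to 14.1); the sources used here give neither build nor RMA settings, and the array medians still differed, from 6.46 to 6.68. Of 33297 probe sets, 19460 carried 1 gene symbol, 1754 several and 12083 none, and only the first kind was used; 19429 of these were matched by Entrez identifier to current symbols. Where a gene had several probe sets (769 genes), the one with the highest mean was taken, leaving 18417 genes. Group means of all 6 arrays were fitted with limma 3.58.1 in R 4.3.3 (lmFit and eBayes, 3 residual and 3.56 prior degrees of freedom), tested on simulated data whose spread and pass mark were revised after a first version missed its mark, and p-values were adjusted by Benjamini-Hochberg over all genes. Genes with an adjusted p under 0.05 were called. The number of arrays limits the precision.

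The members and lists were chosen with earlier results of these data known. Named were every measured member, up to 4 called genes per pathway list and comparison by size of change, the genes behind counts of 5 or fewer, and RIGI, IFITM1, IFITM2 and IFITM3; IFNB1, IFNG, IFNL1, IFNL2, IFNL3, IFNAR2 and IFNGR1, and the genes drawn in the plot of pathway genes, were picked from these lists after their values were seen, as were PECAM1, EMCN, ERG, CD68, PTPRC, CSF1R, XAGE2, MYH11, ACTA2, LMOD1, MYOCD and SYNPO2 among the markers. Whether same-numbered arrays share a batch or culture is not stated in the labels. Deviations of same-numbered arrays correlated at 0.0737 (INM with hESC), -0.0670 (SMC with INM) and -0.119 (SMC with hESC) across genes. With so few arrays per group, these correlations cannot show whether the replicate numbers pair the samples. Alternatives were median centring, quantile normalization, a filter on low signal, the mean of probe sets, a fit of the 4 arrays compared, an intensity trend, the replicate block and leaving out each array. Some items are not reported here. Promoter sequences were taken from RefSeq. Figures were drawn with matplotlib 3.10.9.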

Additional observations from a re-analysis of the deposited data

How the results depend on the processing

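Leaving out 1 array at a time gave 1 to 2 members higher and 2 to 12 lower in INM against hESC (1 and 8 with all arrays), 6 to 15 higher and 0 to 2 lower in SMC against INM (13 and 0), 5 to 12 higher and 1 to 7 lower in SMC against hESC (9 and 4), and 9 to 21 with any difference between stages (16). Quantile normalization gave 2 higher and 4 lower in INM against hESC and 2 lower in SMC against hESC. A fit of only the 4 arrays compared gave 3 lower in INM against hESC, and 12 higher and 7 lower in SMC against hESC. Over the array it called 2541 genes in SMC against INM instead of 3874, and 9200 in SMC against hESC instead of 6859. The test over all stages was not run with 4 arrays. Genes called over the whole array ranged, with an array left out, from 2939 to 7520 in INM against hESC (6217 with all), from 1134 to 6143 in SMC against INM and from 3803 to 9200 in SMC against hESC (6859). Over all genes, 56.1% of the calls in INM against hESC were higher, against 46.0% with median centring and 46.2% with quantile normalization. Among members this share was 33.3% with quantile normalization, against 11.1%, and in SMC against hESC 85.7% against 69.2%. The filter on low signal kept 26 members. The median change of the members ranged over all settings from -0.28 to -0.10, from 0.19 to 0.36 and from -0.04 to 0.10 in the 3 comparisons, and the last turned negative only with that filter.

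The fit with the replicate number as a block gave 5 members lower in INM against hESC, 9 higher in SMC against INM and 3 lower in SMC against hESC. It lost the calls of MX1 (-0.40, adjusted p = 0.0642), IFI27 and PARP9 at the first step, IRF9, SAMD9, IFI35 and PARP14 in SMC against INM and ISG20 in SMC against hESC. Pairing the SMC arrays with crossed numbers, chosen after seeing the data, gave 1 higher and 7 lower, 10 and 0, and 10 and 5.

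Of 114 called single-gene changes, 0 reversed in any setting, and 721 of 781 repeats in settings that keep all arrays of the groups compared were still called. In many repeats a reversal was not possible. The intensity trend, the replicate block and the fit of 4 arrays leave each log2 change as it was. So do the mean of probe sets for a gene with 1 probe set and the removal of an array of the third group. Among changes called in neither fit, 59 repeats had the other sign, the largest of size 0.28 with all arrays; these were set apart from reversals after they were seen. All 6 members below the floor on all arrays have no measured fold.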
